A study of Mus musculus with 30 samples.

Results

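Interferon response genes are the genes that cells switch on when they sense an interferon, and 39 of them were followed here in mouse B cells that carry a mutant Ikzf3 and in leukaemic cells that arose in such mice. The members were chosen by gene name: all 39 are listed in both deposited tables, out of 26266 named genes for young mice and 22781 for aged mice. Aiolos, the product of Ikzf3, is a DNA-binding regulator of lymphocyte genes, and the mice carry a conditional knock-in of its L161R variant whose expression is restricted to B cells. Total RNA was sequenced in 18 libraries of 5 groups, all from C57BL/6 mice, and 12 chromatin samples of the same series were not used here. The young groups were splenic B cells of 3-month-old mice, 3 libraries from wild-type and 3 from homozygous mutant animals. The aged groups came from mice of 15 to 18 months: B cells of 3 wild-type mice, non-leukaemic B cells of 4 mutant mice (3 heterozygous, labelled Ikzf3 fl/+, and 1 homozygous, labelled Ikzf3 fl/fl) and leukaemic cells of 5 mutant mice (4 heterozygous and 1 homozygous). The leukaemic cells resemble chronic lymphocytic leukaemia (CLL), a leukaemia of CD5-bearing mature B cells, and were sorted as B220+CD5+. The non-leukaemic cells are called non-CLL below, and non-CLL and CLL libraries 2, 4, 5 and 6 are taken to come from the same mice. The sources used here do not name the Cre driver or say whether the wild-type mice carry it, and B cells were selected immunomagnetically, which leaves some other spleen cells behind. Nothing states that the young libraries are separate animals, so p-values measure the spread between these libraries.

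Type I interferons bind a paired receptor whose kinases activate the factor ISGF3, of which STAT2 and IRF9 are subunits. ISGF3 binds a short DNA element, the interferon-stimulated response element, in the promoters of its targets. Interferon gamma acts through another element, the gamma-activated site, and both arms raise overlapping sets of genes. The proteins made sense foreign RNA, cut or hold back viral transcripts, block viral entry and budding, and feed back on the pathway. Resting B cells keep a basal level of these transcripts, and plasmacytoid dendritic cells, which make large amounts of interferon, are known for high IRF7 and BST2.

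The promoters of many members share a short element. RefSeq promoter windows of build GRCm38.p6, from 250 bases before to 50 after each start, were found for 29 of the 39 members. The sequence GAAANNGAAA, a common core of the interferon-stimulated response element, was searched on both strands and was present in 16 of the 29 windows (55.2%), against 39.6% of 149 other interferon pathway genes and 3.99% of 27025 genes. The sequence TTCNNNGAA, the core of the gamma-activated site and palindromic apart from its middle, was present in 8 of 29 members (27.6%), against 21.5% of the other pathway genes and 9.55% of all genes. A match is a description and not a site. Of the stretches below, 5 are shown because their genes were called in the comparisons that follow, and Igtp because its pair of elements matches that of Tgtp2 although it was called in none. They lie before the genes' first annotated bases and are written 5′ to 3′ on the strand of the gene. Capitals mark each GAAANNGAAA, in either orientation, and for Tgtp2 and Igtp also the TTCNNNGAA that stands just before it.

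Stat2 (chr10:128270248-128270325, plus strand): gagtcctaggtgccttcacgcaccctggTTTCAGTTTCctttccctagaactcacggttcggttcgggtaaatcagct
Isg15 (chr4:156200835-156200936, minus strand): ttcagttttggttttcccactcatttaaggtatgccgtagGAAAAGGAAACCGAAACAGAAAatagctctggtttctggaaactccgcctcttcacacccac
Bst2 (chr8:71537547-71537642, minus strand): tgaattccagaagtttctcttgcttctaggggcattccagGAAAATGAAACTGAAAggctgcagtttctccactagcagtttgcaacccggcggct
Gbp3 (chr3:142559959-142560015, plus strand): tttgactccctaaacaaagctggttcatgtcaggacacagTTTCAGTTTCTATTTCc
Tgtp2 (chr11:49064233-49064333, minus strand): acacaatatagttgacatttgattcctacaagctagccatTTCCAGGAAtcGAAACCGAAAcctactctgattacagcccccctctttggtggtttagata
Igtp (chr11:58199471-58199555, plus strand): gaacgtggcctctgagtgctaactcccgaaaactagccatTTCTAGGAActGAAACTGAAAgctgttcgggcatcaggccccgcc

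Stat2 holds 1 copy, while the Isg15 stretch holds 3 overlapping copies and those of Bst2 and Gbp3 hold 2 each. In Tgtp2 and Igtp, a pair of interferon-inducible GTPase genes on chromosome 11, the 2 kinds of element stand 2 bases apart. The Bst2 stretch also holds a TTCNNNGAA, not marked as such, which overlaps its first GAAANNGAAA. The members also lie in clusters. Ifit2, Ifit3 and Ifit1 follow each other on chromosome 19, Oasl2 and Oasl1 are 10.9 kb apart on chromosome 5, Gbp3 and Gbp2 are 47.4 kb apart on chromosome 3, and Rsad2 and Cmpk2 are 12.7 kb apart on chromosome 12. The annotated ends of Dtx3l and Parp9 overlap on chromosome 16, so reads from the overlap cannot be told apart without strand.

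Both tables give TPM, a transcript level corrected for gene length and scaled to the same total in every library, so sequencing depth is unknown. Ms4a1, a marker of B cells, was at 617 TPM or more in all 18 libraries. The lowest was aged wild-type library 2, against 3610 and 3848 TPM in wild-type libraries 1 and 3. Over 10 B cell markers that library summed to 6832 TPM, against 16876 and 14036 TPM. Its T and NK cell markers summed to 637 TPM, against 3.99 and 28.7 TPM. Cd5 was at 16.3 to 36.1 TPM in CLL, 5.54 to 11.2 in non-CLL and 0.377 to 1.16 in aged wild-type libraries. Olfactory receptor genes, which B cells do not use, gave a measure of background: their median was 0 TPM in all 6 young libraries, at most 0.745 TPM in aged wild type, 7.18 to 9.21 TPM in non-CLL and 1.08 to 2.71 TPM in 4 CLL libraries, with CLL library 6 at 9.66 TPM. Library CLL 2 stood apart with a summed level of 5443 TPM over 17 myeloid markers, against 71.8 to 183 TPM in the other CLL libraries. Xist, the female transcript, was at 80.9 and 63.1 TPM in young wild-type libraries 1 and 2 and at most 0.0567 TPM in the other young libraries, which instead carried the male transcript Ddx3y at 54.3 TPM or more. Aged wild-type library 2 held both, with Xist at 38.1 and Ddx3y at 17.4 TPM. The 2 tables were processed separately, so levels are compared only within each.

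In young wild-type B cells the middle member had a mean of 30.2 TPM, and 26 of the 39 means were at 20 TPM or above. Ifi27l2a, a small membrane protein gene strongly induced by interferon, was highest at 766 TPM and Ifi44 lowest at 1.28 TPM, and the same genes were highest and lowest in young homozygous cells (348 and 1.46 TPM). In all 3 aged groups Ifi35, a leucine-zipper protein gene, was highest (235 TPM in wild type, 233 in non-CLL and 274 in CLL). Spread between libraries differed far more than these levels. The median coefficient of variation of the members was 12.1% in young wild type and 8.77% in young homozygous cells, but 45.6% in aged wild type, 30.0% in non-CLL and 41.4% in CLL. Ifitm3, which blocks viral entry at endosomes, varied most in 3 groups: 71.5% in young wild type, 42.7% in young homozygous and 153% in CLL libraries.

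The first comparison asks what the homozygous mutation does to B cells before disease. The interferon genes split: in homozygous cells 8 of 39 rose and 9 fell, while 22 did not pass the test. The risers were Stat2, the RNA sensor Ddx58, Oasl1, Gbp3 and 4 genes of the ubiquitin and ADP-ribose system (Parp14, Trim25, Herc6 and Dtx3l), with changes of 1.21-fold to 1.54-fold. The fallers included Isg15 and Ifi27l2a, with changes of up to 2.2-fold. Over all 12219 genes tested 38.4% were called higher and 12.6% lower, so the share of risers among the members was below that of all genes and the share of fallers above it. The median log2 change was −0.20 over the members and 0.18 over all genes. Groups did not overlap, higher, for 9 members (44.5% of all genes) and, lower, for 14 (16.9%).

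**Figure D1:**
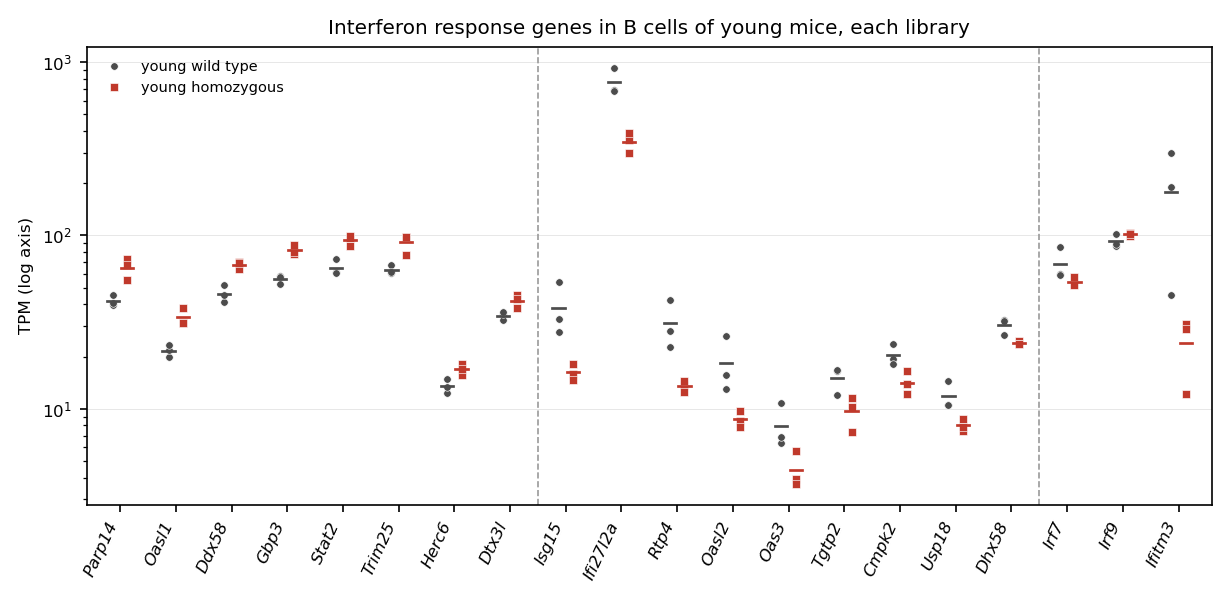
TPM (log axis) of the 17 members that passed the test in young mice and of Irf7, Irf9 and Ifitm3; each point is 1 library, bars are group means, and dashed lines part risers, fallers and genes that did not pass. The wild-type and homozygous points do not overlap for any of the 17, and the Ifi27l2a means lie at 766 and 348 TPM.

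Of the ISGF3 subunits measured here, Stat2 passed the test and Irf9 did not, and the difference between them was not tested. Stat2, the subunit that carries the activation domain, was at 61.3, 61.0 and 73.5 TPM in wild-type and at 87.1, 97.0 and 99.1 TPM in homozygous libraries. Every homozygous library was above every wild-type one, a log2 change of 0.53 ± 0.10 (SE; adjusted p = 0.00225, limma). Irf9, the DNA-binding subunit, was at 86.4, 89.4 and 102 TPM against 99.0, 104 and 102 TPM, groups that overlapped, with a log2 change of 0.13 ± 0.08 (adjusted p = 0.206). Irf9 was called higher with library weights (0.23, adjusted p = 0.00673) and without wild-type library 3 (0.21, adjusted p = 0.0407). Irf7, the factor that amplifies interferon production, was at 60.01, 85.8 and 59.4 TPM against 52.1, 57.5 and 51.6 TPM. The Irf7 groups did not overlap, but the log2 change of −0.32 ± 0.14 did not pass the test (adjusted p = 0.0860).

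Among sensors, Ddx58 (RIG-I, which binds viral RNA ends) was at 41.4, 45.5 and 51.5 TPM in wild type and 63.8, 70.1 and 69.6 TPM in homozygous cells, a log2 change of 0.55 ± 0.09 (adjusted p = 0.00176). Dhx58 (LGP2, a regulator of the same sensors) went the other way, from a mean of 30.3 ± 3.22 TPM to 24.0 ± 0.497 TPM (SD, n = 3 each), a log2 change of −0.32 (adjusted p = 0.0208). Ifih1, Zbp1 and Eif2ak2 did not pass the test. The neighbours Oasl1 and Oasl2, both OAS-like genes, also moved in opposite directions. Oasl1 was at 19.8, 21.8 and 23.2 TPM in wild type and 31.3, 38.2 and 31.4 TPM in homozygous libraries, a log2 change of 0.61 ± 0.11 (adjusted p = 0.00177). Oasl2 was at 15.7, 26.4 and 13.1 TPM against 8.54, 9.75 and 7.82 TPM, a log2 change of −0.94 ± 0.24 (adjusted p = 0.0164). Wild-type and homozygous libraries of either gene did not overlap. Oas3, which makes the messenger that activates RNase L, fell from 7.99 ± 2.44 to 4.43 ± 1.08 TPM (log2 change −0.71, adjusted p = 0.0213).

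Of the 7 members grouped as ISG15 and ubiquitin genes, 4 rose and 2 fell. Over all genes 38.4% were higher and 12.6% lower, with a median log2 change of 0.18. Isg15, the ubiquitin-like modifier itself, was at 27.7, 53.7 and 33.0 TPM in wild type and 18.1, 15.7 and 14.6 TPM in homozygous libraries. Its log2 change was −1.14 ± 0.24 (adjusted p = 0.00948). Usp18, the protease that removes ISG15 and also blocks the interferon receptor, was at 10.6, 14.4 and 10.5 TPM against 7.44, 8.70 and 7.87 TPM, a log2 change of −0.50 ± 0.14 (adjusted p = 0.0153). For both genes all 3 homozygous libraries were below all wild-type ones. The ligases and Parp14 went up. Trim25, which ubiquitinates RIG-I, was at 67.3, 60.4 and 61.8 TPM against 77.3, 98.4 and 97.5 TPM, a log2 change of 0.51 ± 0.10 (adjusted p = 0.00393). Parp14, an ADP-ribosyltransferase, was at 39.7, 40.8 and 45.0 TPM against 55.0, 72.8 and 67.6 TPM, a log2 change of 0.62 ± 0.11 (adjusted p = 0.00215). Herc6, the main mouse ISG15 ligase, and Dtx3l, the ligase partner of Parp9, had smaller log2 changes of 0.31 (adjusted p = 0.0327) and 0.28 (adjusted p = 0.0291), while Parp9 itself was at 42.2 ± 4.94 and 42.7 ± 2.66 TPM.

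Of 7 members grouped as antiviral effectors (Bst2, Cmpk2, Ifitm3, Mx1, Mx2, Rsad2 and Rtp4), 2 fell and none rose, against 12.6% and 38.4% of all genes. Rtp4, a chaperone that restricts RNA viruses, was at 22.7, 42.3 and 28.1 TPM in wild type and 13.7, 14.4 and 12.5 TPM in homozygous libraries, with no overlap and a log2 change of −1.10 ± 0.21 (adjusted p = 0.00510). Cmpk2, a nucleotide kinase encoded beside Rsad2, was at 19.2, 23.8 and 18.2 TPM against 12.1, 16.5 and 13.8 TPM, again without overlap (log2 change −0.50 ± 0.14, adjusted p = 0.0149). Bst2, at 82.4 ± 22.5 and 56.6 ± 8.45 TPM, did not overlap and did not pass (log2 change −0.51, adjusted p = 0.0714). Mx1 and Mx2, dynamin-like genes whose proteins are defective in common laboratory strains, were at 20.9 and 19.6 TPM and at 9.02 and 10.6 TPM on average and did not pass. Among the GTPases, Gbp3, a guanylate-binding protein, was at 58.0, 57.7 and 52.4 TPM in wild type and 78.1, 79.9 and 88.4 TPM in homozygous cells, a log2 change of 0.54 ± 0.08 (adjusted p = 0.00105). Its neighbour Gbp2 was at 26.5 ± 5.45 and 22.6 ± 0.355 TPM and did not pass. Tgtp2, an immunity-related GTPase, was at 12.0, 16.4 and 16.6 TPM against 7.31, 11.5 and 10.2 TPM, a log2 change of −0.59 ± 0.18 (adjusted p = 0.0238). Tgtp2 has a near-identical copy, Tgtp1, at 2.00, 2.92 and 2.80 against 1.69, 1.33 and 1.77 TPM, so the split of reads between the copies is uncertain.

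Ifi27l2a, the most abundant member in young cells, was at 693, 927 and 678 TPM in wild type and 357, 387 and 299 TPM in homozygous libraries. The lowest wild-type library stood well above the highest homozygous one, a log2 change of −1.13 ± 0.14 (adjusted p = 0.000660). Ifitm3 had the largest difference of all members and yet did not pass: it was at 191, 301 and 45.4 TPM in wild type and 30.7, 29.0 and 12.2 TPM in homozygous libraries, a log2 change of −2.58 ± 0.86 (adjusted p = 0.0642). Lyz2, a gene of macrophages and neutrophils, ran the same way at 1443, 2330 and 222 TPM against 163, 129 and 58.2 TPM. The 18 myeloid markers summed to 3160, 6075 and 1720 TPM in wild type and 572, 616 and 266 TPM in homozygous libraries, 7 of them were called lower, and none was at 0 throughout a group. T and NK cell markers summed to 31.8, 130 and 63.3 against 24.6, 28.0 and 15.6 TPM, while plasmacytoid dendritic cell markers summed to 26.3 to 39.4 TPM in all 6. In these bulk samples fewer cells of a type and less RNA per cell cannot be told apart. The part of these cells in the members' changes was not tested. Wild-type library 2, with the highest myeloid sum, was the highest of the 6 libraries for 22 of 39 members, against 15.2% of all genes tested. That all-gene share covers risers as well, 38.4% of the genes. The same library was highest for 8 of the 9 fallers. As fallers did not overlap, their highest library had to be a wild-type one, and the share among all genes called lower was not computed.

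Among members with a promoter window, GAAANNGAAA was present in 3 of 7 risers, 3 of 5 fallers and 10 of 17 that did not pass.

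Sex and genotype were partly confounded, since wild-type libraries 1 and 2 were the only female ones. Without those 2, which leaves 1 wild-type library assumed to vary like the others, 4 members stayed higher (Ddx58, Oasl1, Trim25 and Gbp3) and 3 stayed lower (Isg15, Rtp4 and Ifi27l2a). A median-of-ratios rescaling moved the median change of all genes from 0.18 to −0.00 and the calls over all genes from 4698 higher and 1539 lower to 3008 and 2720, and gave 6 higher and 20 lower among the members. The Herc6 and Dtx3l calls were lost there, and all 9 fallers were still called. Leaving out wild-type library 2, homozygous library 1 or homozygous library 3 left 5, 5 and 3 members lower. The shares of all genes lower were then 9.3%, 10.5% and 8.35%.

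In aged mice the comparison of CLL with non-CLL B cells asks how leukaemic cells differ from other B cells of mutant mice. In CLL 13 members fell and 1, Gbp3, rose, while 25 did not pass. Over 22316 genes tested 5.02% were lower and 0.744% higher. The fallers were led by Tgtp2, Ifi44, Bst2, Mx1, Oasl2 and Irf7, with changes of 3.08-fold to 5.55-fold. The median log2 change was −0.76 over the members and −0.77 over all genes. The median of all genes moved with the background: after subtraction of the olfactory receptor median it was −0.02 over all genes and −0.51 over the members, and at a minimum of 20 TPM −0.06 and −0.58. Groups did not overlap, lower, for 12 members (7.51% of all genes), and none was without overlap in the higher direction (1.17%).

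**Figure D2:**
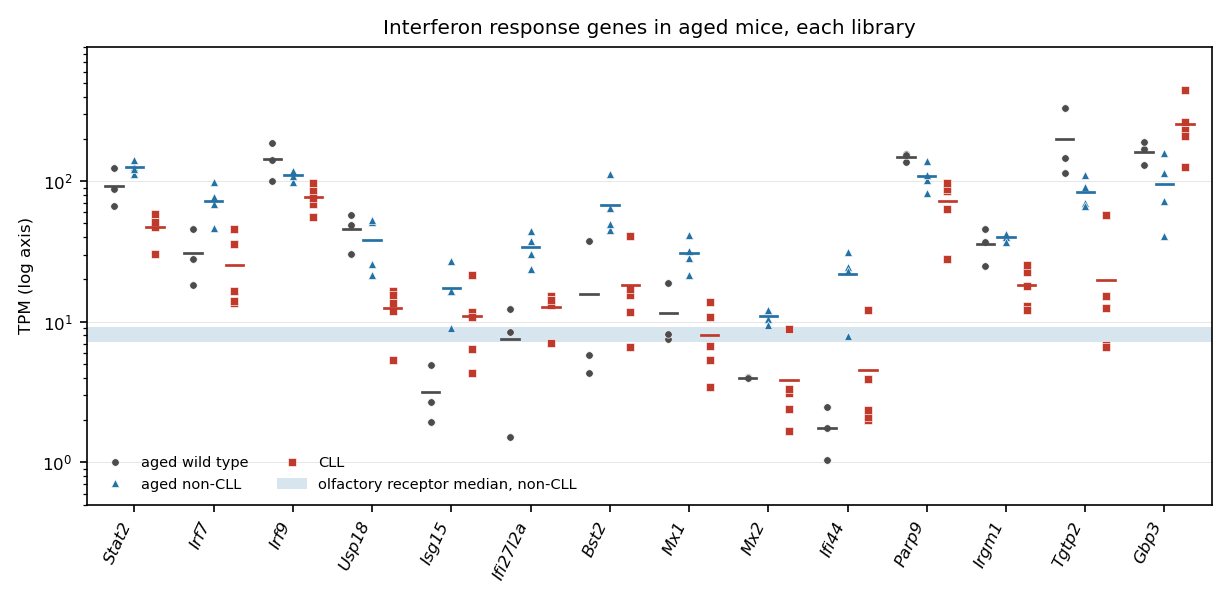
TPM (log axis) of 14 members in the 3 aged groups; each point is 1 library, bars are group means, and the shaded band spans the olfactory receptor medians of the 4 non-CLL libraries (7.18 to 9.21 TPM). The 5 CLL points of Stat2 lie above the band and below those of both other groups, whereas the wild-type points of Mx2, Ifi44 and Isg15 lie below it.

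Stat2 was at 113, 125, 122 and 142 TPM in non-CLL libraries 2, 4, 5 and 6 and at 30.3, 58.7, 47.3, 50.6 and 50.9 TPM in CLL libraries 1, 2, 4, 5 and 6. All 5 CLL libraries were below all 4 non-CLL libraries, and the log2 change was −1.41 ± 0.27 (adjusted p = 0.00406). Irf7 was at 77.2, 68.4, 46.1 and 98.7 TPM in non-CLL and 46.0, 35.6, 16.5, 13.5 and 14.0 TPM in CLL. Its log2 change was −1.62 ± 0.36 (adjusted p = 0.0131). The Irf7 groups nearly touched, at 46.1 and 46.0 TPM. Irf9 was at 98.2, 109, 119 and 118 TPM in non-CLL and 84.6, 97.4, 56.0, 68.6 and 76.4 TPM in CLL, without overlap but with a log2 change of −0.55 ± 0.27 that did not pass (adjusted p = 0.123).

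Of the 7 members grouped as antiviral effectors, 3 fell (Bst2, Mx1 and Cmpk2), against 5.02% of all genes. Bst2 (tetherin, which holds budding virions on the cell surface) was at 45.0, 64.1, 49.3 and 113 TPM in non-CLL. In CLL it was at 40.9, 15.6, 6.65, 11.7 and 17.2 TPM, a log2 change of −1.96 ± 0.41 (adjusted p = 0.0108). Mx1 was at 41.6, 21.5, 28.4 and 31.7 TPM against 5.39, 13.8, 3.42, 6.69 and 10.9 TPM, a log2 change of −1.91 ± 0.41 (adjusted p = 0.0100). All CLL libraries were below all non-CLL libraries for both genes. Stat2, Bst2 and Mx1 kept their calls under every alternative run for this comparison, including subtraction of the olfactory receptor background and each library left out.

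Usp18 was at 51.6, 53.0, 25.8 and 21.6 TPM in non-CLL and 5.35, 16.5, 15.5, 11.9 and 13.5 TPM in CLL, without overlap (log2 change −1.50 ± 0.39, adjusted p = 0.0295). Ifi27l2a was at 30.2, 23.6, 37.8 and 44.0 TPM against 15.2, 14.2, 13.2, 7.01 and 14.3 TPM, also without overlap (log2 change −1.35 ± 0.35, adjusted p = 0.0337). Ifi44 was at 24.4, 22.9, 7.95 and 31.6 TPM in non-CLL and 2.00, 3.92, 2.10, 2.37 and 12.1 TPM in CLL (log2 change −2.16 ± 0.53, adjusted p = 0.0229). Its groups overlapped through CLL library 6, whose background was 9.66 TPM.

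The Ifit genes, whose products bind viral RNA ends, fell in part. Ifit2 was at 24.7, 23.4, 11.1 and 55.5 TPM in non-CLL and 12.8, 8.41, 6.45, 4.93 and 9.63 TPM in CLL, groups that overlapped through non-CLL library 5 (log2 change −1.50 ± 0.43, adjusted p = 0.0441). Ifit3 was lower (log2 change −1.49 ± 0.38, adjusted p = 0.0299) and Ifit1, at 18.4 ± 4.62 and 10.7 ± 3.50 TPM, did not pass; Ifit3 has a near-identical copy, Ifit3b. Oasl2 was at 27.5, 27.2, 17.5 and 35.0 TPM against 3.25, 19.6, 4.55, 7.90 and 8.52 TPM. Only CLL library 2 was inside its non-CLL range (log2 change −1.69 ± 0.44, adjusted p = 0.0318). Cmpk2 (log2 change −1.47, adjusted p = 0.0477) was the member nearest to the threshold among the fallers. With the mouse as a block, over mice 2, 4, 5 and 6, Oasl2 (adjusted p = 0.0512), Cmpk2 (adjusted p = 0.0551) and Gbp3 (adjusted p = 0.0512) missed the threshold. There 11 members were lower, against 2.99% of all genes.

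The interferon-inducible GTPases went in both directions. Tgtp2 was at 69.5, 91.3, 110 and 66.5 TPM in non-CLL and 15.2, 12.6, 6.84, 57.6 and 6.64 TPM in CLL. CLL library 5 was far above the other 4 and still below every non-CLL library (log2 change −2.47 ± 0.51, adjusted p = 0.0228). Irgm1, an autophagy-linked GTPase, fell from 39.9 ± 2.27 TPM (n = 4) to 18.1 ± 5.81 TPM (n = 5), without overlap (log2 change −1.15, adjusted p = 0.0411). Gbp3 was at 72.8, 113, 157 and 40.6 TPM in non-CLL and 232, 209, 126, 447 and 265 TPM in CLL, with only CLL library 4 inside the non-CLL range (log2 change 1.45 ± 0.39, adjusted p = 0.0450). Gbp2 had a log2 change of 1.45 as well but did not pass (adjusted p = 0.0566), and Igtp, which shares its element pair with Tgtp2, was at 116 ± 56.9 and 106 ± 33.0 TPM.

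Plasmacytoid dendritic cell transcripts moved with these genes. The 7 measured markers of that cell type summed to 808, 958, 366 and 2152 TPM in non-CLL and 15.1, 63.1, 16.6, 61.2 and 91.4 TPM in CLL, 6 of the 7 were called lower in CLL, and none was at 0 throughout a group. Siglech, its surface marker, was at 298, 288, 137 and 784 TPM in non-CLL and at most 18.1 TPM in CLL. Non-CLL library 6 had the most Siglech, Irf7 and Bst2 of the aged libraries. Within CLL, library 1 had the lowest Siglech, at 1.32 TPM, and the highest Irf7 and Bst2, and wild-type library 1 had Siglech at 0 and more Irf7 than wild-type library 2. T and NK cell markers summed to 303 to 1012 TPM in non-CLL and 24.5 to 389 TPM in CLL. The part of these cells in the members' changes was not tested.

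**Figure D3:**
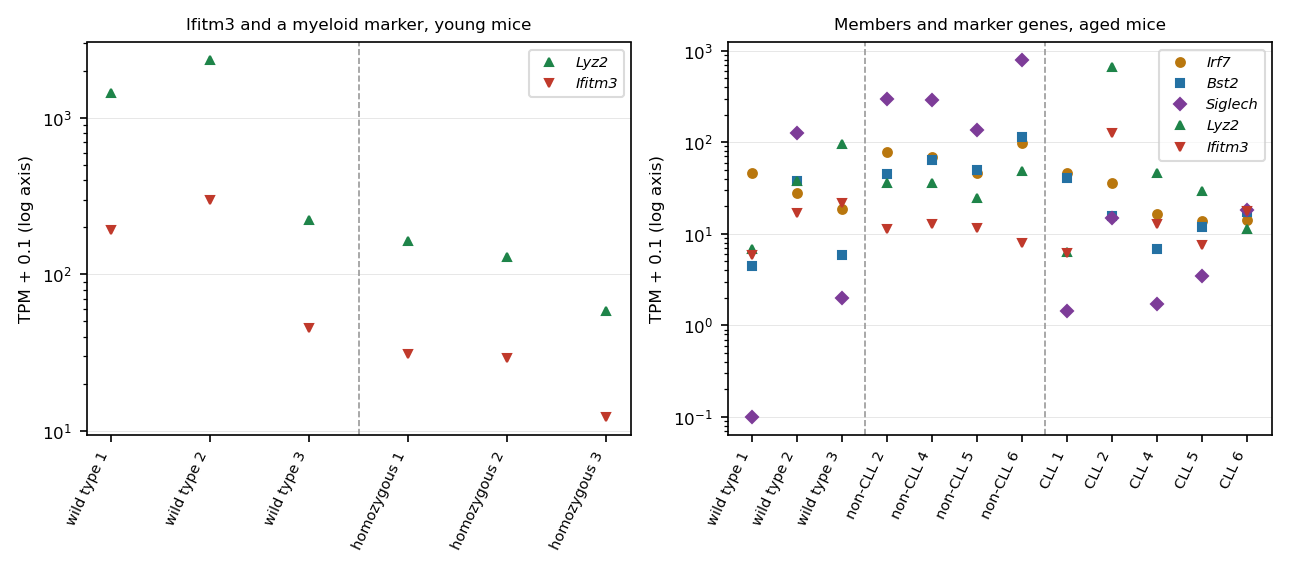
TPM + 0.1 (log axis) by library: Ifitm3 beside the myeloid gene Lyz2 in young mice, and Irf7, Bst2 and Ifitm3 beside the dendritic cell gene Siglech and Lyz2 in aged mice. Siglech reaches 784 TPM in non-CLL library 6, where Irf7 and Bst2 also peak, and Ifitm3 reaches 128 TPM in CLL library 2, where Lyz2 is at 656 TPM.

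Subtracting each library's olfactory receptor median left 3 members lower (Stat2, Mx1 and Bst2) and none higher, against 1.26% and 1.27% of all genes. Among the 25 members that reached 20 TPM in enough libraries, 7 were lower, against 1.9% of 7175 genes: Stat2, Irf7, Bst2, Mx1, Irgm1, Tgtp2 and Ifi27l2a. The count of 13 fell to 6, 8, 6, 5 and 5 without CLL 1, CLL 4, non-CLL 2, non-CLL 4 or non-CLL 6. In those fits 1.05% to 1.37% of all genes were lower. Without CLL libraries 2 and 6 it was 18, and 3 members were higher, but 48.6% of all genes were then lower and 1.64% higher.

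The comparison of non-CLL with aged wild-type B cells sets cells outside the leukaemia against those of wild-type mice. The non-CLL libraries are taken to come from mice that also gave CLL libraries. Effects of the mutation and of leukaemia in the same animal therefore cannot be told apart. Here 7 members rose in non-CLL cells (Ifi44, Bst2, Ifi27l2a, Isg15, Mx1, Mx2 and Irf7), 1 fell (Tgtp2) and 31 did not pass. The table as a whole was shifted: 55.8% of 22150 genes were called higher and 1.48% lower, and the median log2 change was 1.65 over all genes and 0.34 over the members. Groups did not overlap, higher, for 8 members (53.7% of all genes) and, lower, for 1 (2.33%). The share of all genes called higher was 0.942% at a minimum of 20 TPM and 0.231% after subtraction of the olfactory receptor median. The median log2 change over all genes was 0.02 and −0.17 there. Both settings refit the test and its adjustment, and the cause of the drop was not tested. Markers of other cells were called higher for 5 of 7 plasmacytoid dendritic cell, 8 of 10 T and NK cell and 9 of 17 myeloid genes. The share over all genes was 55.8%, and the myeloid share of 52.9% was not above it. The part of these cells in the members' changes was not tested.

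Ifi44 was at 2.48, 1.04 and 1.75 TPM in the wild-type libraries and had the largest change (log2 2.93 ± 0.48, adjusted p = 0.000298). Bst2 was at 4.33, 37.4 and 5.81 TPM in wild type, with library 2 just under the lowest non-CLL library (log2 2.53 ± 0.66, adjusted p = 0.00857). Ifi27l2a was at 12.4, 1.53 and 8.50 TPM in wild type, below every non-CLL library (log2 2.31 ± 0.53, adjusted p = 0.00289). Wild-type library 2 also held plasmacytoid dendritic cell markers, at 518 TPM in sum against 50.5 and 57.4 TPM in libraries 1 and 3, and Siglech at 126 TPM against 0 and 1.89 TPM.

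Isg15 was at 4.90, 2.67 and 1.93 TPM in wild type and 16.5, 16.6, 8.95 and 26.97 TPM in non-CLL cells (log2 2.10 ± 0.44, adjusted p = 0.00157). Mx1 was at 7.60, 19.0 and 8.14 TPM in wild type, and its nearest non-CLL library was at 21.5 TPM (log2 1.42 ± 0.38, adjusted p = 0.00753). Mx2 was at 4.02, 4.00 and 3.97 TPM against 12.1, 12.2, 10.5 and 9.46 TPM (log2 1.26 ± 0.34, adjusted p = 0.00749). The Mx2 levels in non-CLL libraries and the lowest Isg15 level were close to the olfactory receptor medians of 7.18 to 9.21 TPM there. Irf7 was at 45.6, 28.1 and 18.4 TPM in wild type, and library 1 nearly reached the lowest non-CLL value of 46.1 TPM (log2 1.26 ± 0.36, adjusted p = 0.00999).

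Tgtp2 was at 147, 333 and 115 TPM in wild type and 69.5, 91.3, 110 and 66.5 TPM in non-CLL cells, a log2 change of −1.10 ± 0.36 (adjusted p = 0.0214). Wild-type library 2 was by far the highest, and without it the call was lost (adjusted p = 0.0709). Without it 7 members still rose, against 53.4% of all genes. Stat2 was at 125, 66.1 and 87.3 TPM in wild type, overlapping the non-CLL libraries (log2 0.48 ± 0.26, adjusted p = 0.139), as did Irf9 at 187, 100 and 141 TPM (change of −0.32, adjusted p = 0.314). Usp18, at 48.4, 57.6 and 30.4 TPM, overlapped too (change of −0.31, adjusted p = 0.522). After subtraction of the olfactory receptor median no member passed in either direction, and the members' median was −0.25. The values of Bst2 (2.33, adjusted p = 0.0794), Ifi27l2a (2.06, adjusted p = 0.114) and Irf7 (1.09, adjusted p = 0.133) stayed close to those before it. Those of Isg15 (1.15, adjusted p = 0.359), Ifi44 (2.15, adjusted p = 0.192) and Mx1 (0.97, adjusted p = 0.2245) became smaller. Mx2 turned to −0.50 (adjusted p = 0.678). None of the 29 members that reached 20 TPM in enough libraries passed either. At an unadjusted p under 0.05, 12 members passed before subtraction. The share of all genes at that threshold was not computed, but 55.8% were already higher at the adjusted one.

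The last comparison sets CLL against aged wild-type B cells. No member rose and 3 fell in CLL: Tgtp2, Usp18 and Parp9, while 36 did not pass. Over 21202 genes 2.94% were higher and 0.604% lower, with a median log2 change of 0.93 against −0.23 over the members. Of the members, 9 had an unadjusted p under 0.05, a share not computed for all genes. Groups did not overlap, lower, for 5 (2.55% of all genes) and, higher, for 0 (29% of all genes).

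Tgtp2 was at 147, 333 and 115 TPM in wild type and at most 57.6 TPM in CLL, the largest change of any member in any of the 4 comparisons (log2 −3.57 ± 0.69, 11.9-fold, adjusted p = 0.0339). Usp18 was at 48.4, 57.6 and 30.4 TPM in wild type and 5.35, 16.5, 15.5, 11.9 and 13.5 TPM in CLL, where the highest CLL value was well under the lowest wild-type one (log2 −1.81 ± 0.43, adjusted p = 0.0100). Parp9, an ADP-ribosyltransferase that works with Dtx3l, was at 156, 137 and 154 TPM against 27.8, 84.5, 63.4, 88.5 and 96.6 TPM. Its groups did not overlap (log2 −1.15 ± 0.35, adjusted p = 0.0486). The other 2 members without overlap were the ISGF3 subunits Stat2 (log2 −0.93 ± 0.34, adjusted p = 0.0553) and Irf9 (log2 −0.87 ± 0.33, adjusted p = 0.0568), both below the wild-type range in all 5 CLL libraries. Irf7, at a log2 change of −0.36 (adjusted p = 0.527), and Ifi27l2a, at 0.96 (adjusted p = 0.143), overlapped. Parp9 missed the threshold in 9 of 18 alternatives, among them without CLL libraries 2 and 6 (adjusted p = 0.0520) and without wild-type library 3 (adjusted p = 0.176). Background subtraction kept only the Usp18 call, and Usp18 missed the threshold without wild-type library 1 (adjusted p = 0.0516). The count of 3 became 5, 1 and 6 without CLL 1, wild-type 1 and wild-type 2. The shares of all genes lower were then 1.65%, 0.534% and 2.34%.

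**Figure D4:**
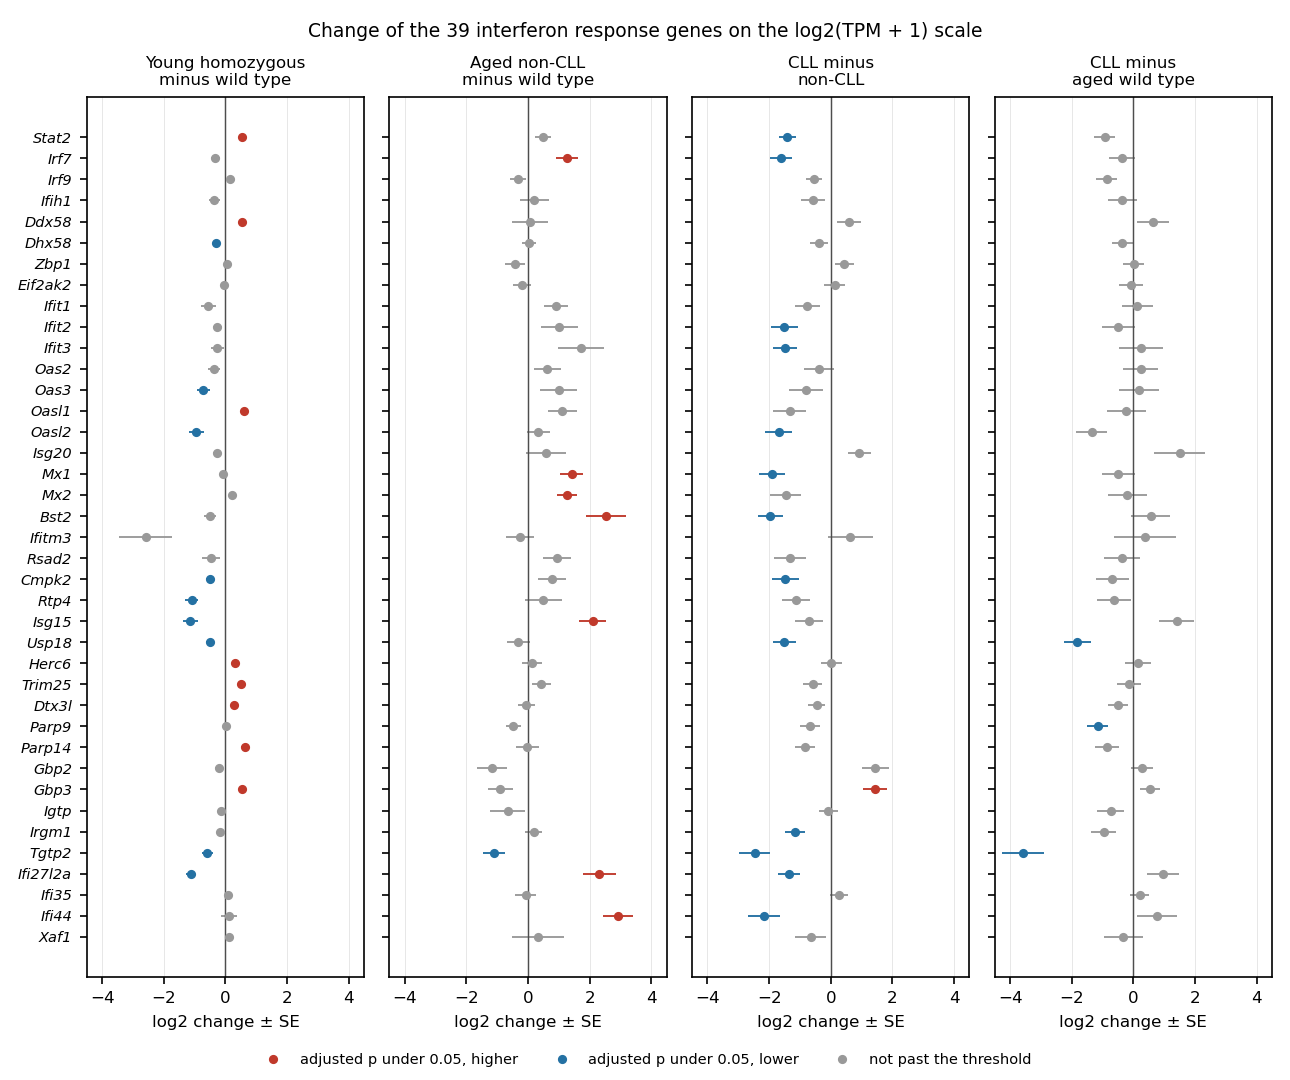
Log2 change ± SE of each of the 39 members on the log2(TPM + 1) scale in the 4 comparisons, red where called higher, blue where called lower and grey where not past an adjusted p of 0.05. Tgtp2 is blue in all 4 panels, and Irf7, Isg15, Ifi27l2a and Bst2 lie on opposite sides of 0 in the young and in the aged non-CLL panels.

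Across the 4 comparisons 26 members were called at least once and 13 never. The share of all genes called at least once was not computed. The young comparison alone called 38.4% of all genes higher and 12.6% lower, and non-CLL against wild type 55.8% higher. Tgtp2 alone was lower in all 4, although the 3 aged comparisons share libraries and its young call was lost in 7 of 14 alternatives (adjusted p = 0.00232 to 0.134). Usp18 was lower in young homozygous cells and in CLL against both aged groups. Stat2 was higher in young homozygous cells and lower in CLL than in non-CLL cells. The neighbours Rsad2 and Cmpk2 had log2 values of −0.46 and −0.50 in young mice and −1.32 and −1.47 between CLL and non-CLL, but Rsad2 passed in neither (adjusted p = 0.230 and 0.0712). The neighbours Oasl1 and Oasl2 had opposite signs in young mice, where both passed, and values of −1.33 and −1.69 in CLL against non-CLL, where Oasl1 did not pass (adjusted p = 0.0821).

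The rest of the pathway was read from lists of 180 further genes. In young mice 56 of 147 tested rose in homozygous cells (38.1%) and 29 fell (19.7%), against 38.4% and 12.6% of all genes. Feedback inhibitors split: Nlrc3 (log2 1.40, adjusted p = 7.92e-05) and Irf2bp2 (0.92) rose, while Socs3 (−1.23) and Socs1 (−1.15, adjusted p = 0.00177), which shut off receptor kinases, fell. The nucleic-acid-binding Ifi213 (1.37) and Ifi208 (1.02) and the GTPase gene Gbp4 (0.89) rose. Ifitm2 (−2.79), Slfn4 (−2.61) and Ifitm1 (−2.43), genes that myeloid cells express strongly, fell. Of the receptor chains Ifnar1 rose (0.32) and Ifnar2 fell (−0.39), Irf8 rose (0.23), and Irf1 (0.21, adjusted p = 0.0899) did not pass.

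In CLL the factor Irf8 and the receptor chain Ifnar2 fell against both aged groups. Irf8, a factor of B cells and dendritic cells, was at 110 ± 35.6 TPM in CLL (n = 5) against 604 ± 141 in non-CLL (n = 4; −2.48, adjusted p = 3.08e-06) and 461 ± 264 in wild type (n = 3; −1.98, adjusted p = 0.000187). Ifnar2 fell against both (−1.63 and −1.40), and Ifnar1 fell 2.01-fold against non-CLL (adjusted p = 0.0347) and did not pass against wild type (−0.86, adjusted p = 0.0546). Irf1 and Socs1 passed in none of the 3 aged comparisons. In all, 20 of 154 tested pathway genes fell between CLL and non-CLL (13%) and 1 rose (Gbp7, 0.97), against 5.02% and 0.744% of all genes. Between CLL and wild type 10 of 150 fell (6.67%) and 1 rose (Ly6e, 1.03), against 0.604% and 2.94%. Further fallers against non-CLL were Ccl5 (−3.31), Iigp1 (−3.19), Ms4a4c (−2.50) and Ms4a4b (−2.47), and against wild type Ms4a4c (−3.60), Ccl5 (−2.59) and Slfn8 (−2.37). Ccl5 and Ms4a4b are also expressed by T and NK cells, whose markers were called lower in CLL than in non-CLL for 6 of 10.

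Between non-CLL and aged wild-type cells 29 of 154 pathway genes rose (18.8%) and 5 fell (3.25%), against 55.8% and 1.48% of all genes. All 16 interferon ligand genes tested were among the risers, led by Ifnb1 (log2 3.53), Ifng (3.51) and Ifna7 (3.47), at mean levels of 5.10 to 14.3 TPM in non-CLL libraries whose olfactory receptor medians were 7.18 to 9.21 TPM. Gbp11 (3.08), at 11.8 TPM, lay in the same range. The fallers included Nt5c3, Nampt (−0.66), Sp110 (−0.60) and Shisa5 (−0.56).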

How the data were processed

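The authors deposited TPM for 6 young and 12 aged libraries. The unit is named in the labels for the aged table, and in the young table it was read from columns that share 1 total. Per the submitters' processing notes, the build is mm10 and the tools include STAR 2.4.0.1, with no role given; the quantification tool is not given in the sources used here. Rows without a gene name took 4.44% to 9.36% of the young TPM and were left out.

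TPM were taken as log2(TPM + 1), so fold changes of low genes are understated. Genes were tested if they reached 1 TPM in n libraries, n being the size of the smaller group, with limma 3.58.1 (R 4.3.3; trend and robust), 2 groups a fit, with Benjamini-Hochberg adjustment over all genes and a threshold of 0.05. The code was tested on simulated data. Same-numbered CLL and non-CLL libraries are taken as the same mice, per the series' design text; their deviations correlated at 0.03, −0.04, 0.12 and 0.17. Members given library by library were Stat2, Irf7, Irf9, Usp18, Ifi27l2a and up to 8 called members per direction, by size, plus others to show a range. The members and lists were chosen with earlier results of these data known.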

Additional observations from a re-analysis of the deposited data

Results flagged for a closer look

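In groups of 4 or 5, 7 of 78 member-and-group pairs had 1 library far from the rest, where chance gives about 1 in 20. Herc6 was at 17.4 TPM in non-CLL library 4, against 23.1 TPM in the next. Ifit1 was at 4.63 TPM in CLL library 4, under 11.1 TPM in the next. Mx2 was at 8.82 TPM and Ifi44 at 12.1 TPM in CLL library 6, whose olfactory receptor median was 9.66 TPM, against next values of 3.35 and 3.92 TPM. Ifitm3 was at 128 TPM in CLL library 2, the library with high myeloid transcripts, against 17.5 TPM in the next. In CLL library 5, Tgtp2 was at 57.6 TPM (next 15.2 TPM) and Ifi27l2a at 7.01 TPM (next 13.2 TPM).

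For 4 members every mutant library was below the wild-type libraries in young mice and, in aged non-CLL cells, above them. Of all genes, 16.9% lay below without overlap in young mice and 53.7% above in aged mice. The share that did both was not computed. All 4 passed the test in aged mice, but Irf7 (adjusted p = 0.0860) and Bst2 (adjusted p = 0.0714) did not pass in young mice. None of them was called in aged mice at a minimum of 20 TPM or after subtraction of the olfactory receptor median. The log2 changes in aged and young mice were 1.26 and −0.32 for Irf7, 2.53 and −0.51 for Bst2, 2.10 and −1.14 for Isg15, and 2.31 and −1.13 for Ifi27l2a. The difference was not tested: the tables are separate, the young mutants are all homozygous and the aged ones mostly heterozygous. The aged non-CLL cells are also taken to come from mice with leukaemia.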

How the results depend on the processing

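Counts are members higher and lower. In young mice, a 20 TPM minimum left 5 lower, median-of-ratios rescaling gave 20 lower (median −0.40), library weights a median of −0.017, a replicate block 15 lower, and leaving out wild-type libraries 1 and 2 gave 4 and 3. The young numbers share only a number (correlations −0.05, 0.28 and 0.33). Over all genes 13.7% were lower at 20 TPM, 22.3% after rescaling and 14.8% with the block, and the median with library weights was 0.20. In CLL against wild type, counts were 1 and 6 with a pseudocount of 0.1, 4 and 10 with library weights, 1 and 7 with all 3 aged groups in the fit, 1 lower after background subtraction (median −0.57) and 0 lower with a replicate block, whose numbers join different animals. In CLL against non-CLL they were 0 and 5 with a pseudocount of 0.1, 0 and 7 at 20 TPM, 0 and 3 after background subtraction (median −0.51), 3 and 21 with library weights, 3 and 20 in heterozygous mice (median −1.05), 2 higher with all 3 groups and 3 higher without CLL libraries 2 and 6, an alternative chosen after seeing the data. With the replicate block over mice they were 1 and 11. Over all genes the lower shares were 0.816% with a pseudocount of 0.1, 1.9% at 20 TPM and 1.26% after background subtraction. They were 50.2% with library weights, 49% in heterozygous mice (median −1.04) and 2.99% with the block. The higher shares were 2.24% with library weights, 1.17% in heterozygous mice and 1.64% without CLL libraries 2 and 6. In non-CLL against wild type the member counts were 0 and 0 at 20 TPM and after background subtraction (median −0.25). There were 3 lower under library weights and 0 lower with all 3 groups, against 4.56% and 1.05% of all genes. In CLL against wild type the higher and lower shares over all genes were 39.7% and 2.07% with a pseudocount of 0.1. They were 51.7% and 6.26% with library weights, 29.4% and 2.3% with all 3 groups, and 0.368% and 0.407% after background subtraction. The cause of these shifts was not tested.

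With 1 library left out, higher and lower counts and medians ranged over 6 to 9, 3 to 11 and −0.26 to −0.10 in young mice, 0 to 2, 1 to 6 and −0.38 to −0.15 in CLL against wild type, 0 to 3, 5 to 18 and −0.96 to −0.67 in CLL against non-CLL, and 6 to 10, 0 to 3 and 0.20 to 0.59 in non-CLL against wild type. Lower counts in the last were 0 without wild-type 2 and 2, 3 and 2 without non-CLL 4, 5 and 6. Over all genes, in the same order, higher shares ranged over 27.8% to 39.9%, 1.2% to 37.1%, 0.312% to 1.73% and 49.7% to 57.4%. Lower shares ranged over 8.35% to 15%, 0.362% to 2.34%, 1.05% to 48.6% and 0.632% to 2.5%. Signs turned for Irf9 in young mice (−0.067 rescaled, −0.013 without wild-type libraries 1 and 2), Irf7 in CLL against wild type (0.17 with the block), and Mx2 (−0.50 after background subtraction) and Usp18 (0.21 with library weights) in non-CLL against wild type. Depth is unknown, so counting error could not be set beside these ranges.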
